A study of Arabidopsis thaliana with 9 samples.

Results

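Cytochrome P450 genes were described in root RNA of Arabidopsis thaliana from 9 Affymetrix ATH1 arrays. A gene was included where a probe set was annotated to it alone and its symbol followed the P450 pattern of CYP, a number, 1 or 2 capitals and a number. This gave 22 genes with 1 probe set each, among 22746 probe sets other than the maker's controls. They are 9.78% of the 225 genes that carry such a symbol in the RefSeq annotation of TAIR10.1. Of the 22 genes, 18 belonged to subfamily CYP71B, which has 35 symbols there, and CYP51G2, CYP78A9, CYP79A2 and CYP84A4 stood alone in theirs. The other P450 genes were not analysed here, since 8730 probe sets are unnamed here and 503 carried several symbols, 2 of them with a P450.

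The 9 arrays came from 3 lines with 3 arrays each. Col-0 was the wild type (stock N1092), and cngc1-3 and cngc19 were T-DNA knock-out lines in the Col-0 background, named after genes for cyclic nucleotide-gated cation channels. All plants grew on agar until day 18, then spent 7 days in aerated hydroponics and were harvested on day 25, at stage 3.90, with the roots of many plants pooled in a tube. No treatment differed between the lines in the labels, and the caesium named in the series title appears in none of them. Neither CNGC1 nor CNGC19 had a named probe set here, so those transcripts give no check of the line names.

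P450s are haem enzymes, mostly of the endoplasmic reticulum membrane, that take electrons from NADPH-cytochrome P450 reductase and insert an oxygen atom into small molecules. In roots they are known for steps in the synthesis of suberin, lignin, glucosinolates, triterpenes, sterols and hormones, and for the oxidation of foreign compounds. CYP71B is a large subfamily with many genes in tandem arrays. Its best known member, PAD3 (CYP71B15), which completes the phytoalexin camalexin, is listed under a symbol that does not follow the pattern and is no member here.

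Values are MAS5 signals as deposited, a linear intensity scaled to a trimmed mean near 100 on every array. Differences are on the log2(signal + 16) scale, which understates those of dim probe sets. Probe sets differ in brightness per transcript and in the paralogues they may bind, so no order of transcript amount between genes is drawn, and near-identical CYP71B copies remain uncertain. In pooled tissue, fewer cells of a type and less RNA per cell cannot be told apart.

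Replicates 2 and 3 of Col-0 stood apart from the other 7 arrays. Their median signals were 63.9 and 66.3, against 32.0 to 42.2 on the others. Their spike-in controls were 16.8 and 5.79 times the median of the other arrays, against 0.614 to 1.39 elsewhere. Across the 22 P450 genes, Col-0 replicate 2 correlated with the 7 arrays at r from -0.06 to 0.13 and Col-0 replicate 3 at 0.30 to 0.51, while Col-0 replicate 1 reached 0.88 to 0.96 with the 6 mutant arrays. The highest of these was with cngc19 replicate 3, at 0.96, while that array reached 0.88 and 0.87 with replicates 1 and 2 of its own line. These are correlations across genes, which share each array, and carry no test. Of the shoot markers, 9 of 44 listed genes had a probe set. Their summed signal was 176, 1401 and 31943 on Col-0, 745, 747 and 1347 on cngc1-3, and 1742, 1502 and 231 on cngc19. None was listed at 0. The number above the array's median was 0, 6 and 9 of 9 on Col-0, 8, 7 and 8 on cngc1-3, and 8, 9 and 1 on cngc19. Only 2 of 42 root markers had one under the symbol listed, EXPA7 and EXPA18 of root hairs. Their sum was 378, 459.7 and 58.8 on Col-0, 153 to 295 on cngc1-3 and 231 to 266 on cngc19. This sum leaves out PYK10, the beta-glucosidase of root ER bodies, which was looked up among the partner genes. PYK10 went another way on Col-0 replicate 2, with 4398, 261 and 448 on Col-0 and 3762 to 5559 on the mutant arrays. On cngc1-3 replicate 3 the 3' to 5' signal ratio was 6.37 for GAPDH and 199.7 for actin, against 0.240 to 2.81 and 1.34 to 5.81 on the others. What part these differences have in the P450 values was not tested.

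The 22 P450 genes described here ranged from bright to dim. On the 7 arrays left when Col-0 replicates 2 and 3 are set aside, 14 of the 22 genes lay below the array's median signal every time, and 5 lay above it every time: CYP71B6, CYP71B23, CYP71B37, CYP71B34 and CYP71B29. CYP71B34 was the single gene above the median on all 9 arrays. The shares of all probe sets so placed were not computed, so these counts show nothing particular to P450 genes. By subfamily, the median over the 7 arrays was 454.7 for the brightest of the 18 CYP71B genes and 0.504 for the dimmest, with 7.13 in the middle. It was 33.3 for CYP84A4, 10.5 for CYP51G2, 8.11 for CYP78A9 and 1.2 for CYP79A2. Over all 9 arrays the middle CYP71B value was 10.3.

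**Figure D1:**
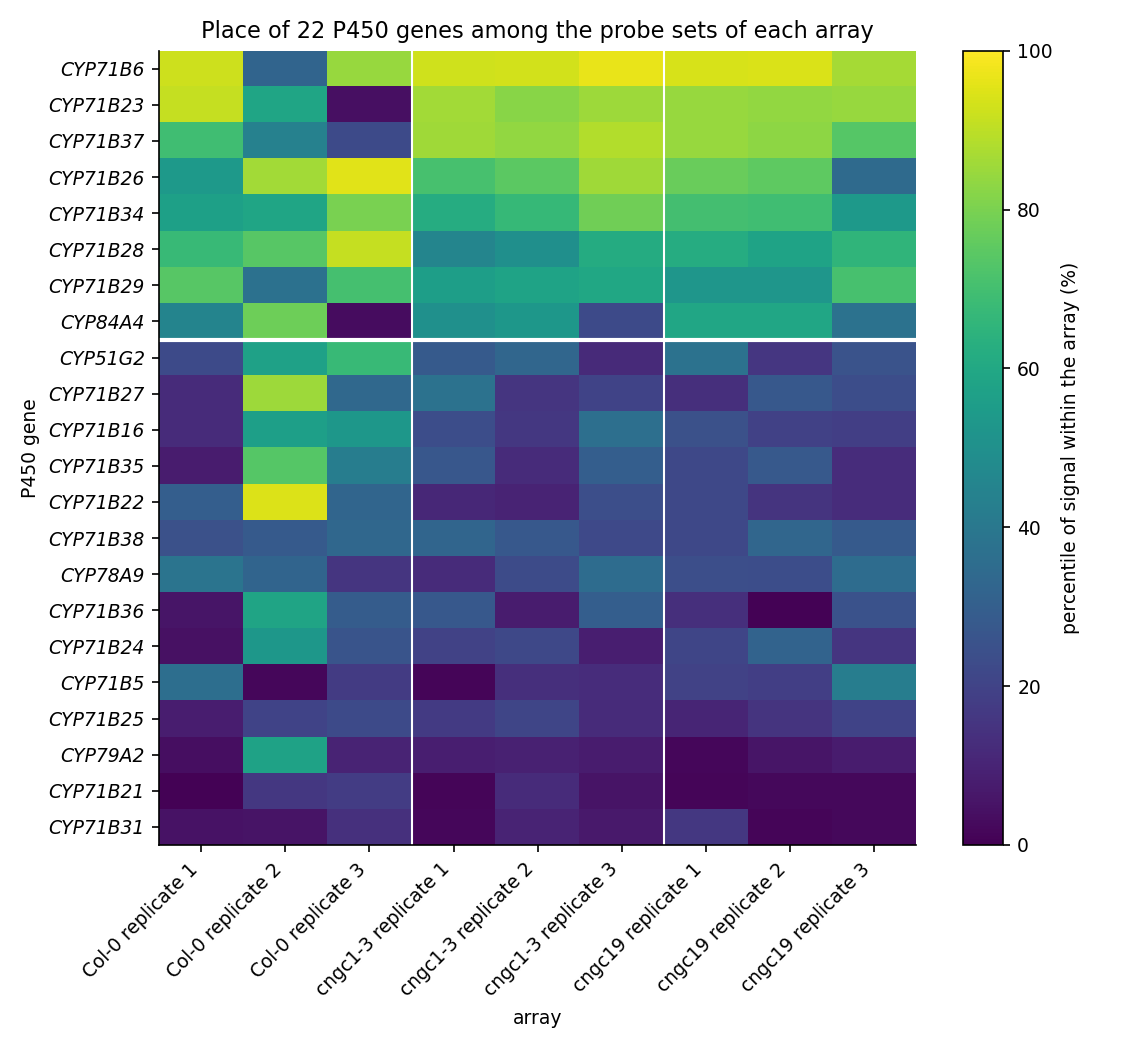
Percentile of each of the 22 P450 genes (one line of cells per gene) among the probe sets of each of the 9 arrays (columns), from 0 to 100%, with white lines between the lines of plants and between tested and untested genes. CYP71B6 stays at or above percentile 86.4 on 7 arrays and is at 32.2 and 84.7 on Col-0 replicates 2 and 3, and the 14 lower genes are dim on those 7 arrays.

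For tests, a probe set needed a mean log2 value at or above the 40th percentile, which equals 5.52, or a signal of 29.9. The table held 13648 such probe sets, and 8 of the 22 P450 genes were among them: 7 of CYP71B and CYP84A4. The nearest inside were CYP84A4 at 5.67 and CYP71B29 at 6.25, and the nearest outside were CYP51G2 at 5.17 and CYP71B27 at 5.03. The filter used all arrays, so a gene bright on 1 line or array could pass through it.

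Among the genes with a known product, CYP71B6 oxidises indole-3-acetonitrile on the route to indole-3-carboxylic acid, a branch of indole metabolism next to camalexin. Its signal was 384, 29.4 and 187 on Col-0 replicates 1 to 3, 425, 455 and 806 on cngc1-3, and 507, 537 and 220.0 on cngc19. All cngc1-3 arrays lay above all Col-0 arrays, as for 13.1% of tested probe sets, while cngc19 replicate 3 lay between Col-0 replicates 1 and 3. The line means were 200.2 ± 178 in Col-0, 562 ± 212 in cngc1-3 and 421 ± 175 in cngc19 (SD, n = 3 each). Within the array, CYP71B6 lay between percentiles 86.4 and 96.5 on all 6 mutant arrays and at 92.5 on Col-0 replicate 1.

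CYP79A2, which turns phenylalanine into the oxime that leads to benzylglucosinolate, was the other gene of the glucosinolate and camalexin list. Its signal was 92.0 on Col-0 replicate 2, 6.04 on Col-0 replicate 3 and 0.398 to 3.03 on the other 7 arrays. A single Col-0 array thus held its whole visible signal, and it was not tested.

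CYP84A4 is a relative of ferulate 5-hydroxylase and acts in the synthesis of arabidopyrones, which are made from phenylpropanoids. It read 33.3, 176 and 3.21 on Col-0, 32.0, 39.9 and 8.87 on cngc1-3, and 51.0, 54.5 and 24.0 on cngc19. Col-0 held both the brightest and the dimmest array, and all lines overlapped. Means were 71.0 ± 92.6 in Col-0, 26.9 ± 16.1 in cngc1-3 and 43.2 ± 16.7 in cngc19 (SD, n = 3 each). In both mutant lines replicate 3 was the dimmest array.

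CYP78A9, known for promoting fruit and seed growth, read 24.2, 29.7 and 8.96 on Col-0, 1.92, 6.62 and 19.8 on cngc1-3, and 8.11, 7.97 and 21.4 on cngc19. The lines overlapped, and no array put it above the median. CYP71B31, which oxidises the monoterpene linalool in flowers, stayed between 0.426 and 8.88 on all 9 arrays. CYP51G2, a transcribed pseudogene in RefSeq and a paralogue of the sterol 14-demethylase gene CYP51G1, read 91.2 and 107 on Col-0 replicates 2 and 3 and 3.21 to 18.4 on the other arrays. Its Col-0 mean of 69.3 ± 52.4 (SD, n = 3) therefore rested on those arrays.

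Members often sat side by side. A run of 16 neighbouring CYP71B genes on chromosome 3, from CYP71B16 to CYP71B37 with at most 4 other genes between neighbours, held 11 of the 22. Of these, CYP71B23, CYP71B26, CYP71B34 and CYP71B37 passed the filter, and 7 did not. Medians over the 7 arrays along the run went from 0.504 for CYP71B21 to 196 for CYP71B23, and bright and dim genes were interleaved. CYP71B23 lay between CYP71B22, with a median of 3.01, and CYP71B24, with 5.17, where CYP71B3 without a named probe set lies between.

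**Figure D2:**
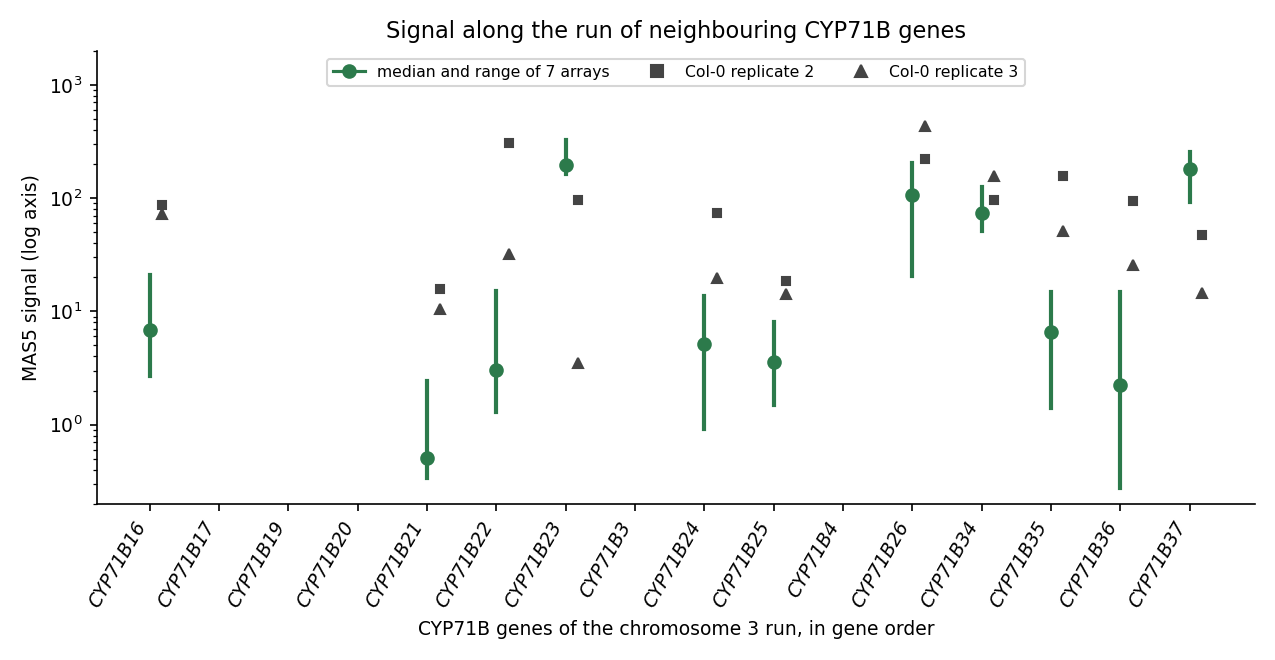
MAS5 signal (log axis) of the CYP71B genes of the chromosome 3 run in gene order; circles and bars give the median and range of the 7 arrays, squares Col-0 replicate 2 and triangles Col-0 replicate 3, and genes without a mark had no named probe set of their own. CYP71B23, CYP71B26, CYP71B34 and CYP71B37 are the tested genes of the run. On both Col-0 replicates 2 and 3 the other 7 genes are brighter than on the 7 arrays, as are 51.3% of untested probe sets. CYP71B23 and CYP71B37 are dimmer on both, as are 23.6% of tested probe sets.

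CYP71B23, listed among P450s responsive to foreign compounds, varied little between the mutant arrays. It read 328, 96.7 and 3.51 on Col-0, 214, 165 and 197 on cngc1-3, and 188, 180.2 and 196 on cngc19. The 6 mutant arrays lay close together, and Col-0 spanned from above all of them to far below. The line means were 143 ± 167 in Col-0, 192 ± 25.1 in cngc1-3 and 188 ± 7.88 in cngc19 (SD, n = 3 each).

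CYP71B37 closes the run, and no role is given here for it, CYP71B26, CYP71B34, CYP71B28 or CYP71B29. Its arrays read 91.9, 47.4 and 14.5 on Col-0, 200.2, 179 and 257 on cngc1-3, and 187, 171 and 111 on cngc19. All cngc1-3 arrays lay above all Col-0 arrays, as for 13.1% of tested probe sets. So did all cngc19 arrays, as for 7.45%. Means were 51.2 ± 38.9, 212 ± 39.9 and 156 ± 40.3 in that order of lines (SD, n = 3 each).

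CYP71B26 read 49.4, 223 and 435 on Col-0, 81.7, 107 and 204 on cngc1-3, and 118, 110.0 and 20.5 on cngc19. Col-0 replicates 2 and 3 were the brightest arrays and cngc19 replicate 3 the dimmest, and all lines overlapped. Means were 236 ± 193, 131 ± 64.5 and 82.7 ± 54.0 (SD, n = 3 each). CYP71B34, the next gene, read 56.2, 96.9 and 157 on Col-0, 53.8, 73.7 and 126 on cngc1-3, and 82.9, 82.4 and 51.0 on cngc19. Its lines overlapped too, with means of 103 ± 50.7, 84.5 ± 37.2 and 72.1 ± 18.3 (SD, n = 3 each). Both genes were brightest on Col-0 replicate 3, the array with the highest shoot marker sum, and dimmest on cngc19 replicate 3, whose sum was the second lowest. The part of shoot tissue in this was not tested.

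The 7 untested genes of the run, CYP71B16, CYP71B21, CYP71B22, CYP71B24, CYP71B25, CYP71B35 and CYP71B36, reached at most 21.1 on the 7 arrays. On Col-0 replicate 2 they read 87.0, 15.8, 309, 73.8, 18.6, 156 and 94.8 in that order, and on Col-0 replicate 3 72.5, 10.4, 32.4, 19.6, 14.3, 51.3 and 25.7. Each was brighter on both of these arrays than on any of the other 7, as were 51.3% of all untested probe sets.

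A second run of 5 genes on chromosome 1 held CYP71B27, CYP71B28 and CYP71B29, with CYP71B28 and CYP71B29 next to each other. CYP71B28 read 84.8, 158 and 268 on Col-0, 26.2, 34.6 and 60.5 on cngc1-3, and 58.2, 52.0 and 78.8 on cngc19. All cngc1-3 arrays lay below all Col-0 arrays, as for 11.3% of tested probe sets. So did all cngc19 arrays, as for 6.88%, although cngc19 replicate 3 came close to Col-0 replicate 1. Means were 171 ± 92.4, 40.4 ± 17.9 and 63.0 ± 14.1 (SD, n = 3 each). The shoot marker sum was highest on Col-0 replicate 3, the brightest array for CYP71B28. It was lowest on Col-0 replicate 1, which also lay above all mutant arrays. Among the mutants, the brightest array for CYP71B28 was cngc19 replicate 3, which had their lowest sum. The part of shoot tissue in the CYP71B28 values was not tested.

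CYP71B29 read 111, 35.4 and 117 on Col-0, 41.5, 49.4 and 56.2 on cngc1-3, and 38.4, 40.7 and 98.7 on cngc19. Col-0 replicate 2 was the dimmest of all arrays, so the lines overlapped. Means were 87.8 ± 45.5, 49.0 ± 7.35 and 59.3 ± 34.2 (SD, n = 3 each). CYP71B27, a transcribed pseudogene in RefSeq, read 219 on Col-0 replicate 2, 35.3 on Col-0 replicate 3 and 2.25 to 17.8 elsewhere. The remaining members lie elsewhere on chromosome 3: CYP71B38 read 6.62 to 34.3 over the 9 arrays and CYP71B5 0.441 to 30.1, with its brightest array in cngc19 replicate 3.

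Taking all 14 untested genes, 12 were brighter on both Col-0 replicates 2 and 3 than on any of the other 7 arrays, against 51.3% of the 9098 untested probe sets. The exceptions were CYP78A9 and CYP71B5. Their median signal was 80.4 on Col-0 replicate 2, where 8 of 14 exceeded the array's median, and 22.6 on Col-0 replicate 3, where CYP51G2 and CYP71B16 did. On each of the other 7 arrays none did, and no signal exceeded 30.1. Of the 8 tested genes, CYP71B28 and CYP71B26 were brighter on both arrays than on the rest, and CYP71B6, CYP71B37 and CYP71B23 were dimmer on both, against 21.9% and 23.6% of the tested probe sets.

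**Figure D3:**
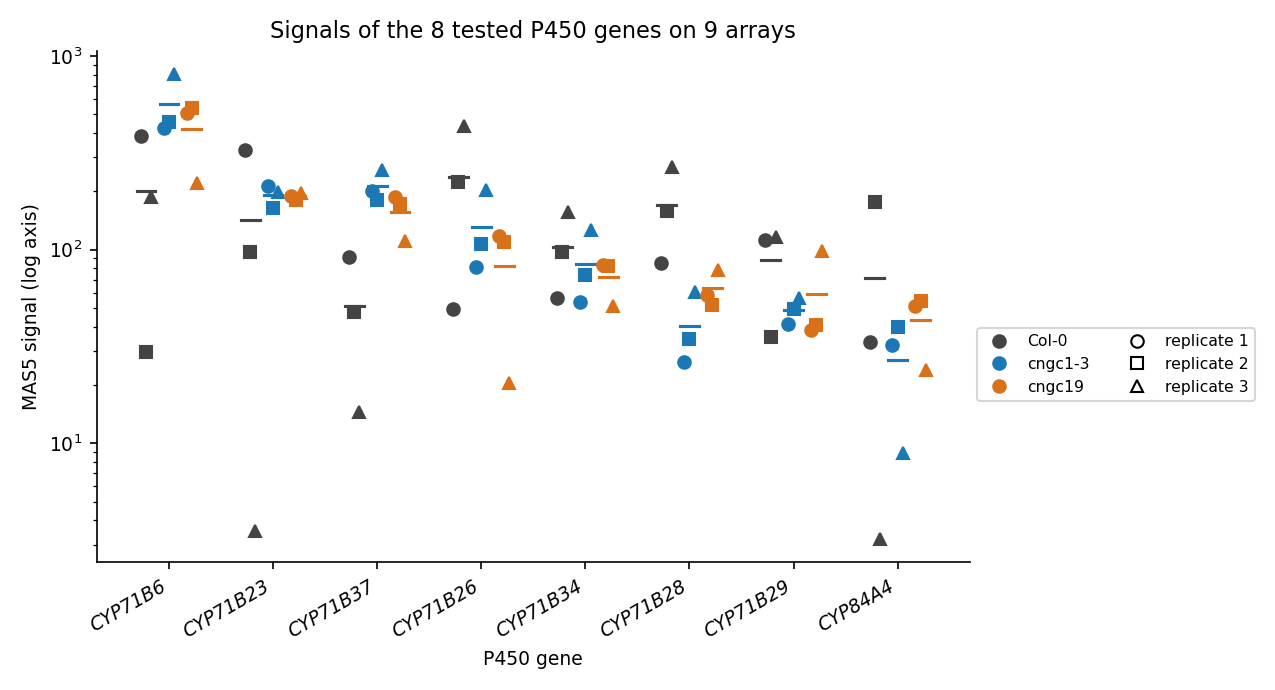
MAS5 signal (log axis) of the 8 tested P450 genes on the 9 arrays; colours mark the lines, shapes the replicates, and bars the mean of 3 arrays. CYP71B37 and CYP71B28 have all mutant arrays on one side of the Col-0 arrays, and the Col-0 arrays are the widest spread for each gene shown. Of tested probe sets, 13.1% have cngc1-3 wholly above Col-0 and 11.3% wholly below, and 7.45% and 6.88% have cngc19 so.

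In the comparison of cngc1-3 with Col-0, which asks which root transcripts differ between a knock-out line and the wild type, CYP71B37 and CYP71B6 had the highest differences and CYP71B28 the lowest. None passed. The log2 difference of CYP71B37 was 1.93 ± 0.49 (SE, 95% interval 0.86 to 3.00, limma adjusted p = 0.181). That of CYP71B6 was 1.84 ± 0.75 (SE, limma adjusted p = 0.185), and that of CYP71B28 was -1.65 ± 0.46 (SE, interval -2.64 to -0.65, limma adjusted p = 0.181). CYP71B23 followed at 1.18 ± 0.80 (SE, limma adjusted p = 0.355). Without Col-0 replicate 2 alone, CYP71B6 was at 0.96, and without Col-0 replicate 3 alone, CYP71B23 was at 0.071. The array with the highest 3' to 5' ratios was cngc1-3 replicate 3. Without it, CYP71B37 was at 1.79, CYP71B6 at 1.56, CYP71B23 at 1.16 and CYP71B28 at -1.89, and none passed. With all 9 arrays, the other 4 genes lay between -0.56 for CYP71B29 and -0.22 for CYP71B34, with CYP84A4 at -0.48 and CYP71B26 at -0.47. Of these, CYP84A4, CYP71B26 and CYP71B34 changed sign under some alternatives, and so did CYP71B23 above.

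Of the 8 tested P450 genes, 0 passed an adjusted p of 0.05 in limma, as did 0% of the tested probe sets, and 3 had an unadjusted p under 0.05, against 24.2% of the tested probe sets. The arrays of cngc1-3 lay wholly above Col-0 for CYP71B6 and CYP71B37, as for 13.1% of tested probe sets, and wholly below for CYP71B28, as for 11.3%. The median difference of the 8 genes was -0.35, beside -0.03 over all tested probe sets, but 0.01 after quantile normalization and 0.17 after centring arrays on their medians. These scalings moved the median of all tested probe sets to 0.28 and 0.49. The split of 3 genes higher and 5 lower became 4 and 4 and then 6 and 2. CYP71B6, CYP71B23, CYP71B37, CYP71B28 and CYP71B29 kept their sign under both scalings, with CYP71B29 at -0.044 after centring.

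For cngc19 against Col-0, CYP71B37 again had the highest difference and CYP71B26 and CYP71B28 the lowest, and none passed. This comparison shares its Col-0 arrays with the one before, so likeness between both is no separate result. CYP71B37 differed by 1.51 ± 0.49 (SE, 95% interval 0.44 to 2.59, limma adjusted p = 0.273), and CYP71B28 by -1.13 ± 0.46 (SE, limma adjusted p = 0.273). CYP71B6 differed by 1.40 ± 0.75 and CYP71B23 by 1.16 ± 0.80 (SE, limma adjusted p = 0.300 and 0.393). CYP71B26 was at -1.17 ± 0.73 (SE, limma adjusted p = 0.352), CYP71B29 at -0.43, CYP71B34 at -0.37 and CYP84A4 at 0.02. Each of these genes changed sign under some alternatives, and so did CYP71B23. Without Col-0 replicate 2 alone, CYP71B6 was at 0.52, and without Col-0 replicate 3 alone, CYP71B23 was at 0.051. Without cngc19 replicate 3, CYP71B37 was at 1.72, CYP71B6 at 1.80, CYP71B23 at 1.14, CYP71B28 at -1.27 and CYP71B26 at -0.56, and none passed.

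By limma's adjusted p, 0 of the 8 genes and 0% of tested probe sets passed, and 2 genes had an unadjusted p under 0.05, against 18.1%. Arrays of cngc19 lay wholly above Col-0 for CYP71B37, as for 7.45% of tested probe sets, and wholly below for CYP71B28, as for 6.88%. The median difference was -0.18, beside 0.05 over all tested probe sets, and turned to 0.11 after quantile normalization and 0.26 after centring. The split of 4 higher and 4 lower became 6 and 2 after centring and stayed 4 and 4 after quantile normalization.

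The P450 genes of both mutant lines were also compared with each other. Between cngc1-3 and cngc19, 0 of 8 genes passed in limma, as did 0% of tested probe sets, and none reached an unadjusted p below 0.05, against 0.0953%. No gene had arrays wholly apart, against 4.81% of tested probe sets with cngc1-3 above and 3.45% with it below. The highest difference was 0.70 for CYP71B26 (95% interval -0.89 to 2.30) and the lowest -0.52 for CYP71B28 (interval -1.52 to 0.48), each with limma adjusted p = 1.00. The difference of CYP71B26 rested on cngc19 replicate 3 and was 0.092 without it, while that of CYP71B28 was then -0.38. These intervals leave room for differences of over 1 on the log2 scale. For each gene the fit pools the spread over all 3 lines, so the wide Col-0 spread enters the intervals and p-values between the mutants. With only the mutant lines fitted, the SE of CYP71B26 was 0.54 instead of 0.73. CYP71B23 differed by 0.02 with an interval of -1.73 to 1.78, and the median of the 8 genes was 0.08, beside -0.03 over all tested probe sets. In the F-test over the 3 lines, 0 of 8 passed, as did 0% of the table, and 2 had an unadjusted p under 0.05, against 14.9%.

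**Figure D4:**
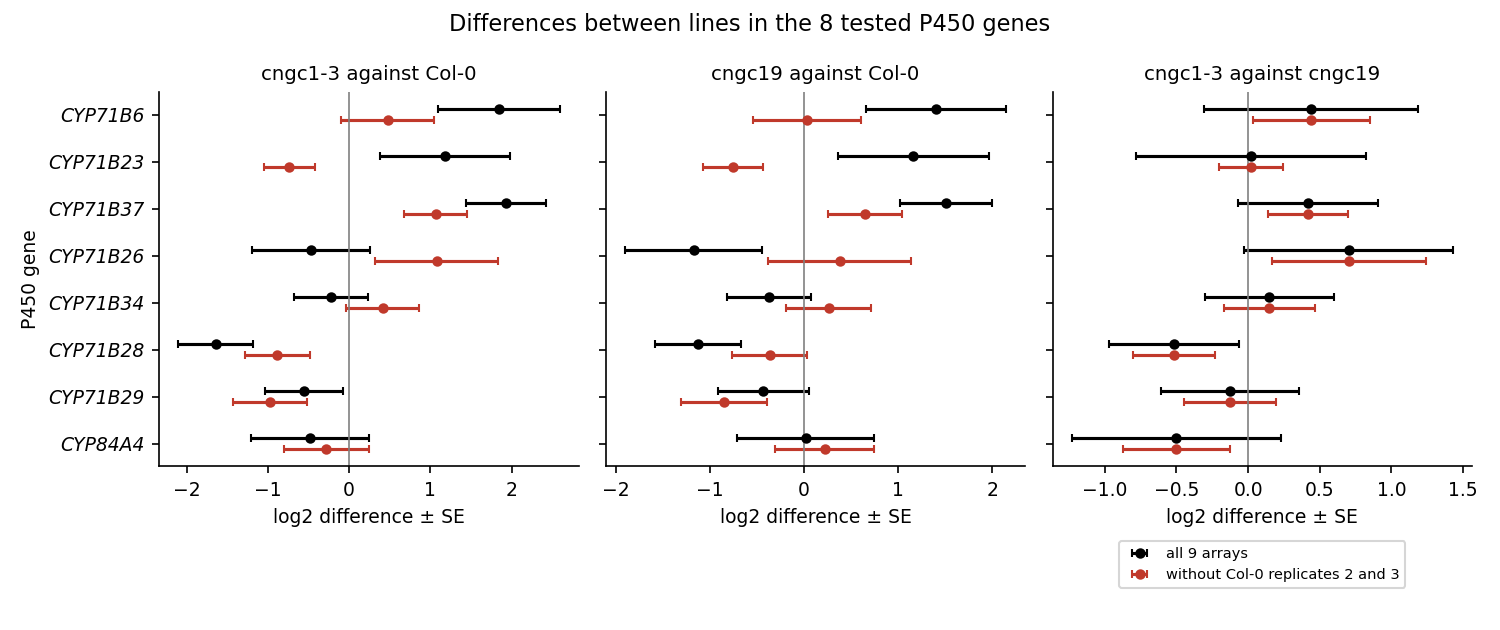
Log2 differences ± SE (x axes, one scale per panel) of the 8 tested P450 genes in the 3 comparisons, with all 9 arrays (black) and without Col-0 replicates 2 and 3 (red). Without those arrays CYP71B37 moves from 1.93 to 1.07 in cngc1-3 against Col-0, CYP71B23 moves from 1.18 to -0.74, and no gene passes in either set.

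The differences from Col-0 depended on which Col-0 arrays were used. Without Col-0 replicates 2 and 3, Col-0 is a single array whose spread is taken from the mutants, and 0 of 8 genes passed in either comparison, as did 0% of tested probe sets. CYP71B37 then differed by 1.07 ± 0.39 in cngc1-3 and 0.65 ± 0.39 in cngc19 (SE, limma adjusted p = 0.536 and 0.988). CYP71B28 differed by -0.88 and -0.37, CYP71B29 by -0.98 and -0.85, and CYP71B6 by 0.47 and 0.03, in the same order. CYP71B23 turned to -0.74 and -0.76, and CYP71B26 to 1.08 and 0.38. Set against Col-0 replicate 1 alone, CYP71B37 was higher on each of the 6 mutant arrays by 0.23 to 1.34, and CYP71B23 differed by -0.93 to -0.58 and CYP71B28 by -1.26 to -0.09.

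Leaving out Col-0 replicate 1 instead gave calls. In cngc1-3, 4 genes then passed limma's adjusted p of 0.05, against 36.2% of tested probe sets: CYP71B6 at 2.53, CYP71B37 at 2.36 and CYP71B23 at 2.14 were higher and CYP71B28 at -2.03 was lower. In cngc19, 5 passed, against 33.7%, the same 4 genes and CYP71B26 at -1.95. With array weights, 3 genes passed in cngc1-3 (CYP71B37, CYP71B28 and CYP71B23) and 1 in cngc19 (CYP71B37), against 9% and 7.67% of tested probe sets. The weights were 0.133, 0.0968 and 0.431 on Col-0 replicates 1 to 3 and 0.449 to 11.9 on the mutant arrays. Within Col-0, replicate 3 thus counted most. Without replicate 3 of both mutants as well as Col-0 replicates 2 and 3, 5 and 4 genes passed, against 25.7% and 24.3%. These were CYP71B37, CYP71B26, CYP71B23 and CYP71B29 in both and CYP71B28 in cngc1-3, and CYP71B23, at -0.76 and -0.78, was then lower and CYP71B26, at 0.74 and 0.99, higher than Col-0. In the F-test over the 3 lines, 4, 2 and 5 genes passed without Col-0 replicate 1, with array weights and in the last set, against 28.6%, 3.53% and 22.9% of tested probe sets. Between cngc1-3 and cngc19 no P450 gene passed in these, against 0%, 0.0659% and 0.784%. In each of these sets of arrays the difference from Col-0 was positive for CYP71B37 and negative for CYP71B28.

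The spread between tubes of a line was itself widest in Col-0. For the 8 tested P450 genes the median SD of log2 values was 1.17 in Col-0, 0.47 in cngc1-3 and 0.41 in cngc19, beside 0.98, 0.31 and 0.30 over all tested probe sets. For CYP71B23 it was 2.09 in Col-0, 0.18 in cngc1-3 and 0.06 in cngc19, the smallest SD of the 8 genes in the last line. CYP71B26 was the most variable gene of cngc19, at 1.06, through its replicate 3.

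Few partner genes of P450 pathways had a named probe set. None of 14 electron donors, such as P450 reductases and cytochromes b5, and none of 21 suberin enzymes had one. Of 23 triterpene genes LUP5, a triterpene cyclase, had one, with a signal of 32.5 on Col-0 replicate 2 and at most 8.57 elsewhere, and it was not tested. Among 29 indole glucosinolate and camalexin genes, 2 were tested and 0 passed. PYK10, the abundant beta-glucosidase of root ER bodies, read 4398, 261 and 448 on Col-0, 5559, 4891 and 4690 on cngc1-3, and 5434, 4409 and 3762 on cngc19. As with CYP71B6, Col-0 replicates 2 and 3 were the dimmest arrays. Its log2 differences from Col-0 were 2.61 in cngc1-3 and 2.44 in cngc19 (limma adjusted p = 0.190 and 0.274). UGT74B1, the glucosyltransferase of glucosinolate synthesis, differed by 0.29 and 0.67 (limma adjusted p = 0.729 and 0.430).

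Of 28 phenylpropanoid and coumarin genes, 5 were tested and 0 passed in any of the 3 comparisons. DFR, the dihydroflavonol reductase of anthocyanin synthesis, had the lowest values, with log2 differences from Col-0 of -1.70 in cngc1-3 and -1.80 in cngc19 (limma adjusted p = 0.181 and 0.273). It read 21.3, 168 and 211 on Col-0 and 12.5 to 37.6 on the mutants. Col-0 replicate 1 lay within the mutants' range. BGLU42, a beta-glucosidase of coumarin release, differed by -0.97 and -0.67, and CCOAMT, a methyltransferase of lignin synthesis, by -0.48 and -0.69. HCT, the shikimate transferase of lignin synthesis, differed by 0.14 and 0.44, and CCR2, a cinnamoyl-CoA reductase, by 0.84 and 1.22.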

How the data were processed

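Root RNA was measured on 9 ATH1 arrays, 3 per line, grouped and numbered by their titles. The deposited table holds signal intensities on a linear scale, which the authors made with the tools MAS5 and GCOS named in the submitters' processing notes. MAS5 merges the probes of a probe set and scales each array to a common mean. Trimmed means (2% at each end) lay between 99.95 and 99.99, so no scaling was added. Detection calls were not used. Precision is limited by the number of arrays. The labels do not say whether tubes are separate cultures, and a p-value here reflects only how far tubes differ, which may be technical.

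Probe sets were named through the platform annotation, with 13436 of 13513 single symbols brought up to date through RefSeq (TAIR10.1). Signals were analysed as log2(signal + 16). Of 22810 probe sets, 64 controls were left out. The rest were tested with limma 3.58.1 in R 4.3.3 (lmFit, eBayes with an intensity trend) in one model of 9 arrays with 6 residual degrees of freedom, two-sided, adjusted by Benjamini-Hochberg over all 13648 tested probe sets. The procedure was tested on simulated data in which a gene had the same spread in every line. In the real data Col-0 spread more widely, so the simulation does not show how the fit behaves on them. Tables were made in Python 3.11.15 (pandas 2.3.3, numpy 2.4.6) and plots in matplotlib 3.10.9.

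The members and lists were chosen with earlier results of these data known. Genes were named by a rule on brightness, non-overlap, range, nearness to the filter and list membership, and 7 further members were named so that each is accounted for. Of 11 P450 lists, 5 had a member: indole glucosinolates and camalexin (2 of 14 genes), phenylpropanoids (CYP84A4, 1 of 7), terpenes (CYP71B31, 1 of 16), foreign compounds (CYP71B23, 1 of 9) and CYP78A of organ growth (CYP78A9, 1 of 6). The other 6 had 0. Of the 5, the 3 lists with a tested member, which are those of CYP71B6, CYP84A4 and CYP71B23, had 0 calls.

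Alternatives were pseudocounts of 1 and 64, no filter and the 60th percentile, quantile normalization, centring on array medians, array weights, eBayes without trend, a replicate block, fits of only the lines compared, a threshold of 0.1, arrays left out singly or together, and another choice of probe set.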

Additional observations from a re-analysis of the deposited data

How the results depend on the processing

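With pseudocounts of 1 and 64, no filter, a filter at the 60th percentile, both other scalings, eBayes without trend, an adjusted p under 0.1 and only the lines compared, 0 P450 genes passed in each comparison. Same-numbered arrays of different lines deviated from their line means with r from -0.234 to 0.19, and differently numbered ones with r from -0.229 to 0.242. These values show no pairing by number, but cannot exclude it, since deviations from a mean of 3 arrays depend on each other. With the replicate number as a block, 0 P450 genes passed in each comparison and in the F-test (smallest adjusted p 0.182, 0.274, 1.00 and 0.338).

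Array weights gave 3 calls in cngc1-3 against Col-0, 1 in cngc19 against Col-0 and 2 in the F-test. The shares of tested probe sets were 9%, 7.67% and 3.53%. The estimate of the weights stopped short of its convergence tolerance. Leaving out each array in turn gave 0 to 4, 0 to 5 and, in the F-test, 0 to 4 calls, all of them from leaving out Col-0 replicate 1. Without that array, 36.2%, 33.7% and 28.6% of tested probe sets passed in the same order. Leaving out Col-0 replicates 2 and 3 and replicate 3 of both mutants left a single Col-0 array. Its calls, given above beside the shares of tested probe sets, rest on that array. Between the mutants each of these gave 0 P450 calls, against 0.0659%, 0% and 0.784% of tested probe sets in this order.

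The median difference of the tested P450 genes, -0.35 in cngc1-3 against Col-0, was 0.48 with the 60th percentile filter (6 genes), 0.0091 with quantile normalization, 0.17 with centring, -0.0838 with array weights, 0.0654 without Col-0 replicates 2 and 3, 0.10 without replicate 3 of both mutants as well, and -0.45 to 0.0904 with each array left out. In cngc19 against Col-0 it was -0.18, and under the same alternatives 0.40, 0.11, 0.26, 0.29, 0.13, 0.44 and -0.20 to 0.08, with -0.50 for no filter (22 genes) and 0.035 for a pseudocount of 1. Between the mutants it was 0.08, -0.15 with array weights, 0.28 with the 60th percentile filter, -0.24 without Col-0 replicates 2 and 3 and replicate 3 of both mutants, and -0.07 to 0.17 with each array left out. The cause was tested for none of these moves.

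CYP71B23 reversed without Col-0 replicates 2 and 3, to -0.74 in cngc1-3 and -0.76 in cngc19, and without replicate 3 of both mutants as well, to -0.76 and -0.78 (adjusted p = 0.0310 and 0.0279). CYP71B26 reversed in the same sets, to 1.08 and 0.74 in cngc1-3 and to 0.38 and 0.99 in cngc19. In cngc1-3 it also reversed to 0.0435 with centring and 0.15 without Col-0 replicate 3 (range -1.25 to 0.15 with each array left out). Between the mutants CYP71B26 reversed to -0.13 with array weights and -0.24 in the smallest set of arrays. Over all alternatives, CYP84A4 ran from -1.26 to 0.58 in cngc1-3 and from -0.76 to 1.07 in cngc19, and CYP71B34 from -0.75 to 0.41 and from -0.69 to 0.45. CYP71B29 ran from -1.06 to -0.044 and from -1.20 to 0.0073. Between the mutants, CYP71B6, CYP71B23, CYP71B29 and CYP71B34 also changed sign under some alternatives, with values from -0.32 to 0.66. In the comparisons with Col-0, CYP71B6, CYP71B28 and CYP71B37 kept their sign under every alternative run. The probe set of smallest variance is the same for each gene by construction. The median level of each subfamily moved by less than its spread without Col-0 replicates 2 and 3.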
